A study of Cavia porcellus with 72 samples.

Results

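Myelin is the lipid-rich membrane that oligodendrocytes wrap around axons in the central nervous system. Oligodendrocytes arise from precursor cells, and the transcription factors OLIG1, OLIG2 and SOX10 act early in this lineage, while myelin proteins and the enzymes that build myelin lipids accumulate as the cells mature. In the hippocampus myelinated fibres run mainly in the white matter tracts and the perforant path, and myelination continues after birth.

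The genes described here are 9 markers of this lineage, chosen by symbol: MBP, MOG, MAG, CNP, MOBP, OLIG1, OLIG2, SOX10 and UGT8. Of these, 7 had a row in all 3 count tables, among 11446 genes common to the tables, and all 7 passed the filter on low counts in every generation. MBP and MOBP were not analysed here.

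RNA-seq of the right hippocampus covered 36 female Dunkin-Hartley guinea pigs killed on postnatal day 40, in 3 generations descended from pregnant F0 animals. The synthetic glucocorticoid (sGC) betamethasone was given to the F0 animals at 1 mg/kg, in 3 courses of 2 days from gestational day 40 to 61, and F0 animals of the control line received saline. Only the F1 animals were exposed as fetuses, and F2 and F3 came through F1 and F2 males mated with females outside the experiment, so that F1, F2 and F3 are separate cohorts of the paternal line. There were 6 control and 5 sGC animals in F1, 6 of each in F2, and 6 control and 7 sGC animals in F3, born to independent mothers, with 1 library per animal.

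The authors deposited raw reads per gene, and totals ran from 13507449 to 19767033 reads per library. Counting error alone did not account for the differences between libraries of a group (chi-square over its degrees of freedom 2.11 to 28.9). Levels are given as counts per 1000000 reads (CPM), scaled by TMM within a generation, and depend on transcript length, so that they are compared between libraries and not between genes. For the 7 genes between 793 and 14909 reads were counted in a library, so that the spread between animals and not counting error set most of the uncertainty. In whole tissue, fewer cells of a type and less RNA per cell cannot be told apart. The sGC libraries labelled with numbers 32 to 36 (F1 sGC replicates 4 and 5, F2 sGC replicate 6, and F3 sGC replicates 5 and 6) have numbers apart from the series of their own generation, and no control library is numbered so.

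In F1, the offspring of treated pregnancies, the mean of each of the 7 genes was lower in sGC than in control animals. Of all 11377 genes tested 5885 had estimates below 0. The 7 genes also varied together from animal to animal, so that 7 of 7 is not 7 separate observations. None of the 7 passed an adjusted p of 0.05 in edgeR's quasi-likelihood test, where 2.08% of all genes tested did. DESeq2 and edgeR's likelihood ratio test also called 0 of them. At an unadjusted p below 0.05 there were 2, MOG and MAG, against 19.6% of all genes. The median log2 fold change of the 7 genes was -0.18, compared with -0.0055 over all genes tested.

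MAG encodes a myelin-associated glycoprotein of the membrane that faces the axon. Control animals had a lowest MAG level of 241.7, a median of 270.1 and a highest of 352.3 CPM, and the sGC animals had 306.5, 205.5, 233.6, 181.3 and 211.9 CPM in replicates 1 to 5. Of the sGC animals 4 lay below every control animal, while replicate 1 lay inside the control range. The means were 284.7 ± 46.1 CPM (SD, n = 6) in control and 227.8 ± 47.8 CPM (SD, n = 5) in sGC animals. On the log2 scale the difference was -0.32 (95% interval -0.60 to -0.043), and its adjusted p was 0.194 in edgeR. Of 11 fits that each left out 1 library, MAG was called in 1, and its adjusted p in edgeR reached 0.333. The fit that called it left out sGC replicate 1, the highest sGC animal, which lowers the estimate. The share of all genes called in that fit is not given here. Its log2 fold change for MAG was -0.45 with an adjusted p of 0.0462. Leaving out sGC replicates 4 and 5, the F1 libraries among those numbered 32 to 36, gave a log2 fold change of -0.19.

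MOG is carried on the outer surface of the myelin sheath. Its control levels ran from 206.7 CPM over a median of 247.4 to 309.0, and the sGC levels were 262.3, 202.0, 187.9, 226.4 and 169.0 CPM. Replicate 1 was again the highest sGC animal, and 3 of 5 lay below the lowest control. The log2 fold change was -0.29 (95% interval -0.54 to -0.032), with a standard error of 0.119 and an adjusted p of 0.202 in edgeR.

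CNP, a cyclic nucleotide phosphodiesterase of the uncompacted parts of myelin, also had its highest sGC level in replicate 1. Control animals had between 546.6 and 769.4 CPM (median 617.3), and the sGC animals had 693.5, 493.5, 533.8, 535.1 and 504.2 CPM. All sGC animals but replicate 1 were below the lowest control. The log2 fold change of CNP was -0.21 (95% interval -0.42 to 0.0036, adjusted p = 0.262 in edgeR).

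UGT8 makes galactosylceramide, a main lipid of myelin. It had 171.3 to 228.8 CPM in control animals (median 186.0) and 239.2, 165.3, 177.8, 136.8 and 155.5 CPM in sGC animals. Here 3 sGC animals lay below and replicate 1 above every control animal, and the groups therefore crossed on both sides. The log2 fold change was -0.17 with an interval from -0.43 to 0.096. It was -0.31 without sGC replicate 1, -0.090 without sGC replicate 4 and -0.019 without sGC replicates 4 and 5.

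Of the 3 transcription factors, SOX10, which drives the final differentiation of oligodendrocytes, had the lowest estimate. Its levels were 76.7 to 111.0 CPM in control animals (median 89.0) and 102.8, 78.0, 72.9, 72.5 and 78.5 CPM in sGC animals. Its estimate was -0.18 on the log2 scale, with a standard error of 0.108 and an adjusted p of 0.362 in edgeR. Without sGC replicate 1 it was -0.28, and without control replicate 1 it was -0.12. OLIG1, a factor of oligodendrocyte maturation, had 417.2 to 563.6 CPM in control animals and 416.0 to 535.4 CPM in sGC animals. OLIG2, which specifies the lineage, had 54.7 to 68.6 CPM and 53.7 to 67.7 CPM. The log2 fold changes of OLIG1 and OLIG2 were -0.05 and -0.04, and their intervals, -0.25 to 0.15 and -0.19 to 0.11, leave room for small differences in either direction.

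For every one of the 7 genes the F1 groups overlapped, where 4.41% of all genes tested had groups that did not. The median log2 fold change of the 7 genes was -0.30 without sGC replicate 1, -0.12 without control replicate 1 and -0.12 without sGC replicates 4 and 5. Markers of other cells were also compared between the F1 groups, where 2.08% of all genes were called and 48.3% were above 0. The lists differed in direction. The summed level of 7 meningeal markers was 101.3 to 282.7 CPM in control and 71.7 to 139.7 CPM in sGC animals, with DCN and LUM called lower. The sum of 9 astrocyte markers was 9613 to 12409 CPM in control and 10787 to 17136 CPM in sGC animals, with 9 of 9 higher and 0 called. Lower estimates were found for 7 of 10 neuron, 4 of 6 Schwann cell and 2 of 2 choroid plexus markers. Higher ones were found for 5 of 8 microglial and 5 of 7 endothelial markers, with 0 called in each of these lists. Of 8 thalamus and striatum markers 5 were lower, while 1, RORA, was called higher. Their part in the values of the oligodendrocyte genes was not tested.

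**Figure D1:**
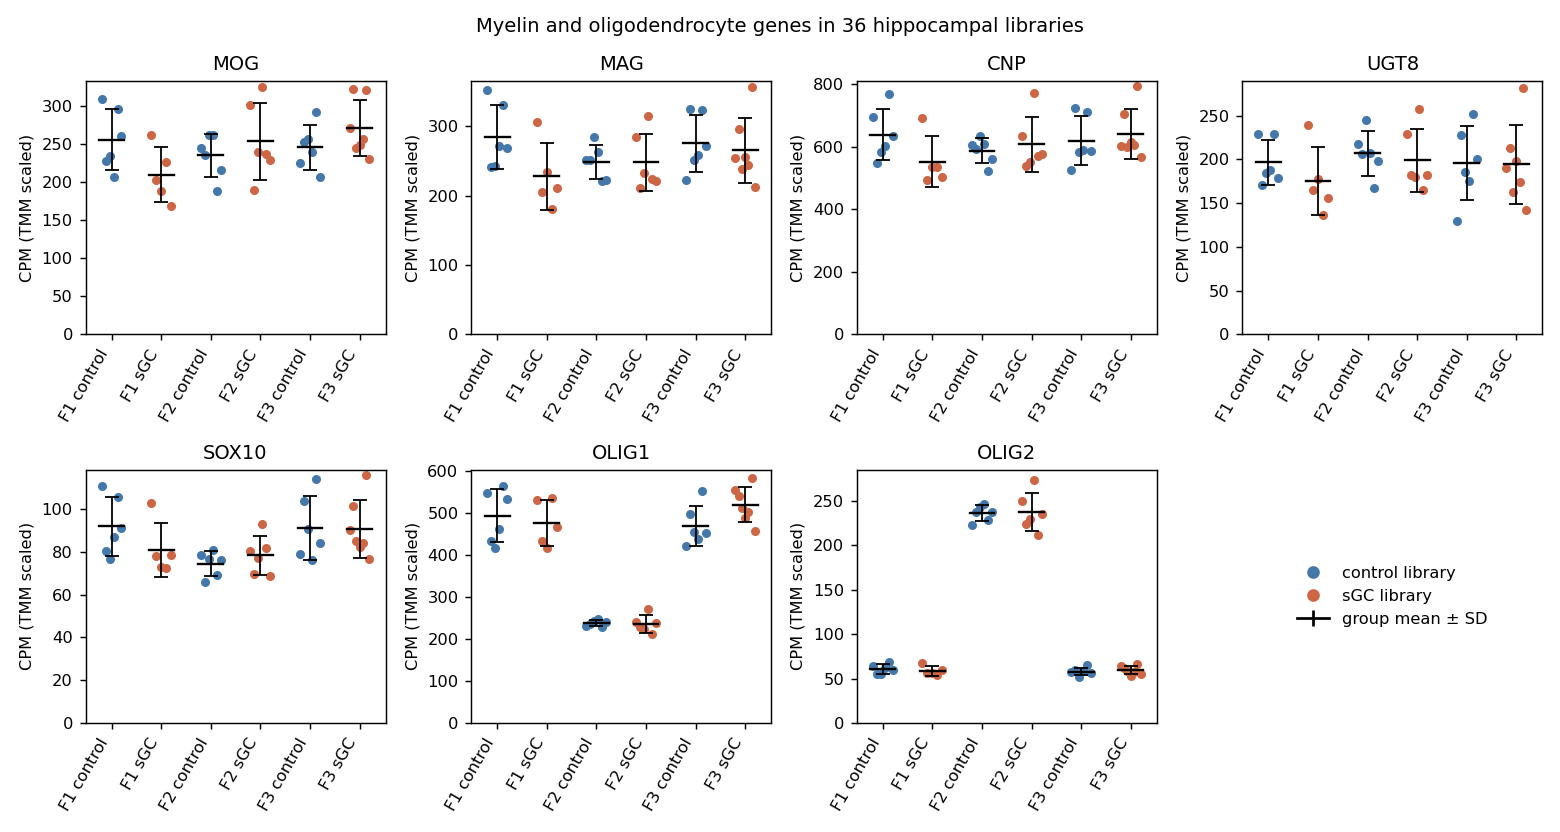
Levels of the 7 genes in CPM (vertical axes, starting at 0) in each of the 36 libraries by generation and group. Points are single animals and bars are the group mean ± SD. The F1 sGC group of MAG holds 4 animals below every control and 1 inside the control range, and OLIG1 and OLIG2 stand at other levels in F2 than in F1 and F3.

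In F2, the levels of the 7 genes in sGC animals lay on both sides of those in control animals, and 4 estimates were above 0 and 3 below. OLIG1 and OLIG2 are counted here as separate genes, although in F2 they could not be read so. None of the 7 passed in edgeR, with 0 also at an unadjusted p below 0.05, and 0 of them in DESeq2 or the likelihood ratio test. Over all 11414 genes tested 0% were called, and 6.64% had an unadjusted p below 0.05. The median log2 fold change of the 7 genes was 0.0089, beside -0.00041 over all genes.

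MOG, the surface glycoprotein, had the highest F2 estimate. It ranged from 188.1 CPM over a median of 240.7 to 262.0 in control animals, and from 189.3 CPM over 237.9 to 324.8 in sGC animals. The upper end of the sGC group was replicate 4, and 2 sGC animals lay above every control. The log2 fold change was 0.11 (95% interval -0.13 to 0.34, adjusted p = 0.859 in edgeR), and it was 0.024 without sGC replicate 4 and 0.18 without sGC replicate 2. For the other myelin genes the centres of the groups were close. MAG had 221.2 to 285.4 CPM (median 251.2) in control and 210.8 to 314.6 CPM (median 228.4) in sGC animals, and its log2 fold change was -0.0066 (95% interval -0.20 to 0.19). CNP had 522.5 to 633.9 CPM (median 599.4) and 538.2 to 772.4 CPM (median 574.8), with a log2 fold change of 0.05. The medians of both genes were lower in sGC animals, while the highest animal of each was an sGC animal. UGT8, the galactolipid enzyme, had 167.6 to 245.5 CPM in control and 165.7 to 257.6 CPM in sGC animals (log2 fold change -0.06). SOX10 had 65.7 to 80.7 and 68.5 to 93.1 CPM (0.07 on the log2 scale). The intervals of CNP and SOX10 lay between -0.11 and 0.22, so that in F2 a change of either gene of 1.5-fold would have fallen outside them.

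OLIG1 and OLIG2 could not be read as separate genes in F2. Counts, medians and correlations of the 7 genes that include F2 libraries still hold both. In each of the 12 F2 libraries their read counts were within 5% of each other, with for example 3329 and 3229 reads in control replicate 1 and 4316 and 4358 reads in sGC replicate 4. The ratio of OLIG1 to OLIG2 reads ran from 0.966 to 1.03 in F2. In F1 it ran from 7.37 to 9.98 (median 7.83, n = 11) and in F3 from 7.36 to 9.14 (median 8.56, n = 13). No F2 library had a ratio near that of the other generations. The library kit does not mark the strand, and how reads shared by different genes were counted is not given in the sources used here. The cause of the equal counts was not tested. The sum of both genes had a median of 473.4 CPM in F2, beside 525.8 in F1 and 555.6 in F3. With the reads of both summed into 1 feature, an alternative chosen after seeing the data, the log2 fold change of sGC against control was -0.04 in F1, -0.0010 in F2 and 0.14 in F3 (adjusted p = 0.817, 0.998 and 0.214 in edgeR).

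**Figure D2:**
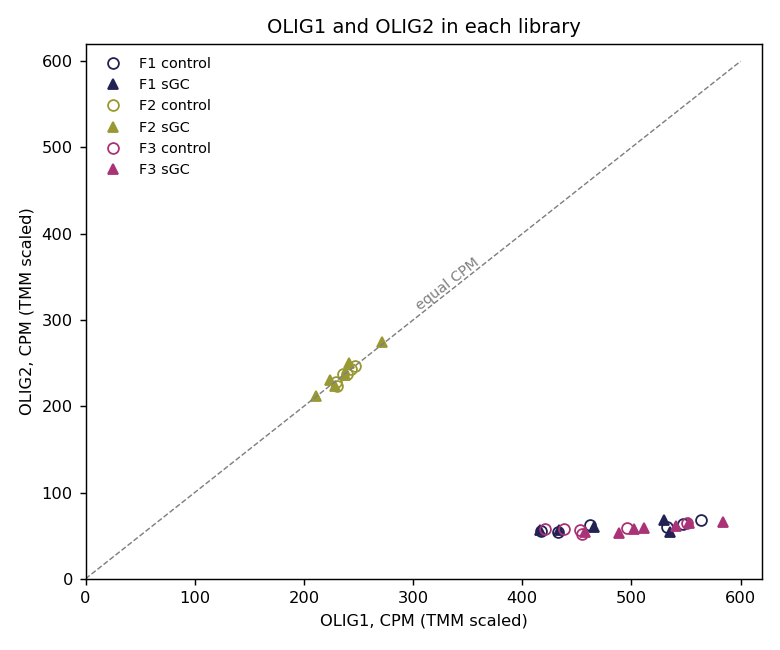
OLIG2 against OLIG1, both in CPM, in each of the 36 libraries, with circles for control and triangles for sGC animals and a dashed line where both are equal. The 12 F2 libraries lie along that line, and the F1 and F3 libraries lie far below it with OLIG1 to OLIG2 read ratios of 7.36 to 9.98.

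In F3, the great-grandoffspring of the F0 animals, the 7 genes again lay on both sides, with 4 estimates above 0 and 3 below. None passed in edgeR's quasi-likelihood test, where 5.04% of 11359 genes did, and none in DESeq2 or the likelihood ratio test. At an unadjusted p below 0.05 there was 1, OLIG1, against 21.1% of all genes. Their median log2 fold change was 0.04, and 0.0048 over all genes. Without sGC replicates 5 and 6, which are among the libraries numbered 32 to 36, the median was -0.0058.

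OLIG1, the maturation factor, had 420.8 to 551.1 CPM in F3 control animals (median 453.8) and 457.2 to 583.7 CPM in sGC animals (median 511.8). All 7 sGC animals lay above the control median and 2 lay above every control animal. The means were 469.1 ± 47.3 CPM (SD, n = 6) and 519.6 ± 42.6 CPM (SD, n = 7). On the log2 scale they differed by 0.15 (95% interval 0.015 to 0.28, adjusted p = 0.187 in edgeR). Over the alternatives that kept each library or left out those numbered 32 to 36, its log2 fold change was 0.12 to 0.18. OLIG2 had 51.7 to 65.0 and 53.5 to 66.1 CPM (log2 fold change 0.04), and SOX10 had 76.2 to 114.1 and 76.7 to 115.9 CPM (-0.0038).

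The myelin genes of F3 overlapped widely. MOG had 207.1 to 291.7 CPM in control animals (median 246.2) and 230.1 to 321.7 CPM in sGC animals (median 256.2), with a log2 fold change of 0.14 (95% interval -0.039 to 0.32). MAG had 223.3 to 325.5 CPM (median 265.5) and 212.3 to 356.7 CPM (median 253.8), with a log2 fold change of -0.06. For MAG both the lowest and the highest animal were sGC animals. CNP ran from 524.3 to 724.5 CPM in control and from 566.0 to 794.0 CPM in sGC animals (log2 fold change 0.05). UGT8 was the most variable of the 7, at 130.2 to 251.9 CPM in control and 142.1 to 282.2 CPM in sGC animals, and its interval was accordingly the widest, -0.31 to 0.30 around a log2 fold change of -0.0047. All 7 genes overlapped between the groups in F2 and in F3, where 0.403% and 2.71% of all genes tested did not overlap.

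**Figure D3:**
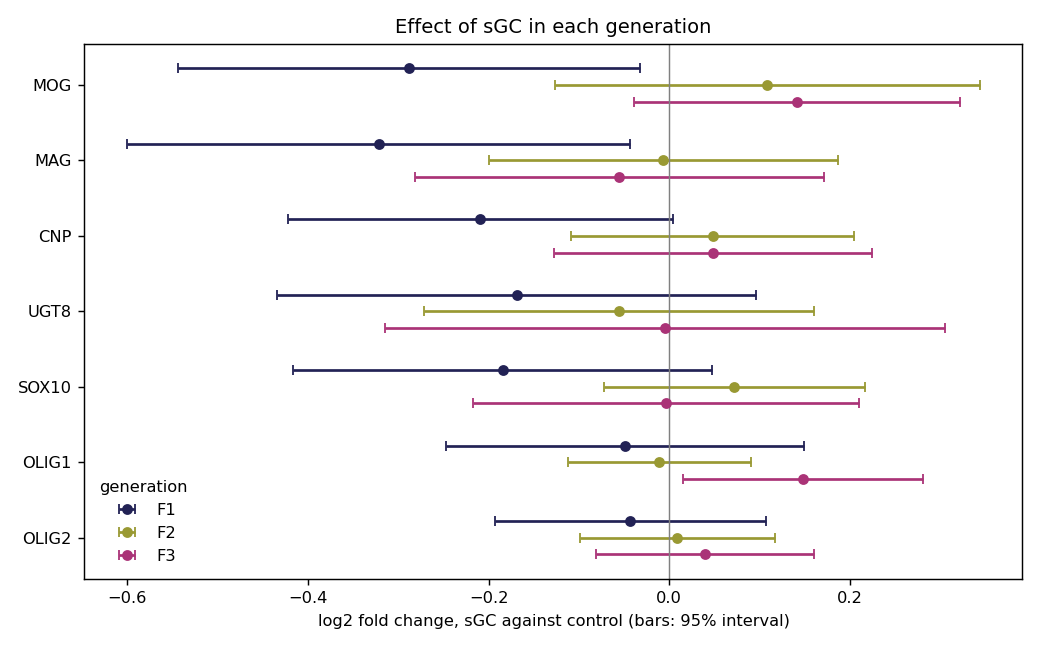
Log2 fold change of sGC against control (horizontal axis) for each of the 7 genes in F1, F2 and F3, with bars for the 95% interval of edgeR's quasi-likelihood fit. The F1 estimates all lie below 0, with MAG at -0.32 and MOG at -0.29, and the F2 and F3 estimates lie between -0.06 and 0.15.

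Whether the effect of sGC differed between generations was tested as an interaction over all 36 libraries. Of the 7 genes 0 were called for F2 against F1, for F3 against F1 or for F3 against F2 in edgeR, where 0.29%, 0% and 0% of 11390 genes were called. DESeq2 and the likelihood ratio test called 0 as well. MOG had the largest differences of the 7, 0.39 on the log2 scale for F2 against F1 (95% interval 0.045 to 0.73) and 0.42 for F3 against F1 (95% interval 0.084 to 0.76). The adjusted p of edgeR was 0.237 and 0.273. MOG was the only gene of the 7 with an unadjusted p below 0.05, in both of these differences and not in F3 against F2, against 16.8%, 13.1% and 9.08% of all genes. For MAG the difference of F2 against F1 was 0.31 with an interval from -0.051 to 0.66. Lower levels in F1 alone were therefore not shown for any of the 7 genes, since the difference between generations did not pass for any of them.

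Control animals were compared between generations to order the levels. Between F3 and F1 controls 0 of the 7 genes were called in edgeR, and 0 also in DESeq2, the likelihood ratio test and at an unadjusted p below 0.05. Of all 11390 genes 0.0176% were called, and 7.7% had an unadjusted p below 0.05. The log2 fold changes of F3 against F1 controls ran from -0.08 for OLIG1 to -0.02 for UGT8. The F2 controls stood apart. Against F1 controls 3 of 7 genes were called, OLIG1 at -1.10, OLIG2 at 1.92 and SOX10 at -0.35 (adjusted p = 1.67e-15, 8.61e-26 and 0.00648 in edgeR), where 44.9% of all genes were called. A share of 3 in 7 is near this background, and so is that of F3 against F2 controls, where the same 3 genes and 38% of all genes were called. Among the 3 are OLIG1 and OLIG2, which could not be read as separate genes in F2.

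Differences over 2-fold between F2 and F1 controls were found for 456 genes, or 4% of those tested, and for 5 genes between F3 and F1. Generation and anything done separately to a generation's table cannot be told apart, and levels set across F2 and the other generations are given on this footing. MOG, MAG, CNP and UGT8 had log2 fold changes of -0.17, -0.24, -0.17 and 0.03 between F2 and F1 controls and were not called. With control libraries alone in the fit MAG was called, at -0.24 with an adjusted p of 0.0488. The SOX10 difference between F3 and F2 controls was 0.32 on the log2 scale, with an adjusted p of 0.0131 in edgeR's fit over all genes. It was 0.25 with an adjusted p of 0.0577 in edgeR without F3 control replicate 5. Summed, OLIG1 and OLIG2 were lower in F2 than in F1 controls by a log2 fold change of -0.27 (adjusted p = 0.00192 in edgeR), much less than the values of the separate genes.

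Within the groups the 7 genes varied together from animal to animal. Each library's deviation from its own group mean on the log2 scale was compared between genes over the 36 libraries, as a description, since the values of a library share its depth and its dissection. The 21 pairs of genes had Pearson's r from 0.63 for MOG and OLIG2 to 0.94 for MAG and UGT8, with a median of 0.77. CNP had an r of 0.95 with the mean of the other 6 genes, MAG 0.94, SOX10 0.89, UGT8 0.88, MOG 0.81, OLIG2 0.79 and OLIG1 0.78. The myelin genes and SOX10 thus ranked above OLIG1 and OLIG2, with MOG close to the latter. The 36 libraries include those of F2, where OLIG1 and OLIG2 could not be read as separate genes. Their ranks and their r with each other are therefore not values of 2 separately measured genes throughout.

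A single value per library, the geometric mean of the 7 genes relative to the control mean of its generation, shows which animals stood high or low. In F1 it was 0.881 to 1.17 in control animals, and 1.11, 0.831, 0.842, 0.827 and 0.825 in sGC replicates 1 to 5. The F1 sGC group thus consisted of 4 animals close to each other, below every control, and 1 animal high in the control range. The 7 genes varied together, so that this is not a pattern seen 7 times over. The share of all genes with 4 of 5 sGC animals below every control, as for MAG and CNP, was not computed. In F2 it was 0.894 to 1.09 in control and 0.900 to 1.25 in sGC animals. There sGC replicate 4 had the highest level of its generation for 7 of 7 genes, with OLIG1 and OLIG2 counted separately. In F3 it was 0.857 to 1.20 in control and 0.875 to 1.29 in sGC animals, and sGC replicate 6 was highest for 6 of 7 genes. The highest animal of F2 and F3 was therefore an sGC animal, and that of F1 a control animal. Without these single sGC animals the median log2 fold change of the 7 genes was -0.036 in F2 and -0.0099 in F3, so that the sign of both medians rested on them.

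**Figure D4:**
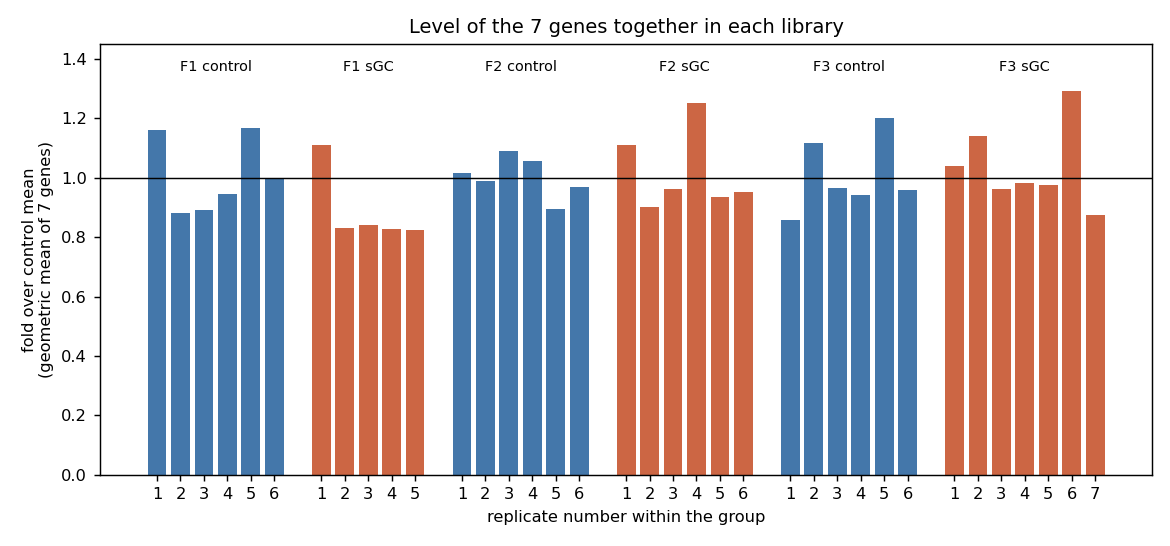
Level of the 7 genes together in each library, as the geometric mean of their fold over the control mean of the same generation (vertical axis, starting at 0), with replicates on the horizontal axis and the line at the control mean. In F1 sGC replicates 2 to 5 stand at 0.825 to 0.842 and replicate 1 at 1.11, and in F2 and F3 the highest bars are sGC replicate 4 at 1.25 and sGC replicate 6 at 1.29.

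The genes whose animal-to-animal pattern was most like the mean of the 7 were named from the 11161 genes tested in all 3 generations. The closest was CLDN11, the claudin of myelin tight junctions, with Pearson's r 0.95, Spearman's rho 0.92 and an r of 0.93 without the 2 farthest libraries (n = 36). Within F1, F2 and F3 its r was 0.96, 0.96 and 0.93. PLLP, the myelin protein plasmolipin, followed at 0.90, as did ADAMTS4, a secreted protease, and ARSB, a lysosomal sulfatase, both at 0.90. MAP3K6, a kinase, had an r of 0.89. CERS2 and FA2H, which make the very long chain ceramides and the hydroxylated fatty acids of myelin lipids, both had 0.88. MYRF, the transcription factor that switches on myelin genes, had 0.87, and SLC44A1, a choline transporter, and SETDB1, a histone methyltransferase, had 0.86.

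These 10 genes were chosen for their likeness to the 7 over the same animals, so that their differences between groups are not independent of those of the 7 and are given as a description. In F1 their log2 fold changes of sGC against control had a median of -0.15, with 9 of 10 below 0 and 0 called in edgeR (smallest adjusted p 0.205), and 2, PLLP and FA2H, had an unadjusted p below 0.05, a share like the 19.6% of all genes. ADAMTS4 was at -0.33, CLDN11 at -0.28, FA2H at -0.26 and PLLP at -0.20. CLDN11 had 472.5 ± 76.2 CPM (SD, n = 6) in F1 control and 390.4 ± 82.5 CPM (SD, n = 5) in F1 sGC animals. In F2 and F3 the medians were -0.010 and -0.027, with 0 called and 0 at an unadjusted p below 0.05.

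Among longer marker lists, likeness to the 7 genes was highest for other genes of mature oligodendrocytes, of which 16 of 25 (64%) had an r over 0.5, against 3.65% of all other genes. Their median r was 0.71, and CLDN11 was the highest of them. Precursor and newly formed oligodendrocyte genes had a median r of 0.34, led by ENPP6, a marker of newly formed oligodendrocytes, at 0.71, while PDGFRA, the growth factor receptor of precursor cells, had 0.25. Enzymes of myelin lipids had a median of 0.18 with 5 of 13 over 0.5. Genes of contact between axons and glia had a median of 0.07, from -0.65 for ERBB2 to 0.77 for LPAR1, a receptor for lysophosphatidic acid.

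Markers of other cells were mostly at or below 0, with medians of -0.30 for astrocytes, -0.26 for microglia, -0.15 for endothelium and -0.26 for hippocampal neurons. Meningeal markers had a median r of 0.27, Schwann cell markers 0.15, choroid plexus markers 0.12 (2 genes only) and markers of the neighbouring thalamus and striatum 0.0053. Single genes of these lists stood higher, namely GAD2, an enzyme of inhibitory neurons, at 0.53 and the thalamic marker PRKCD at 0.60. What the dissection of each animal contributed to these values was not tested. In each group, all measured markers of oligodendrocytes, neurons and astrocytes had reads, which the filter on low counts largely fixed in advance.

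**Figure D5:**
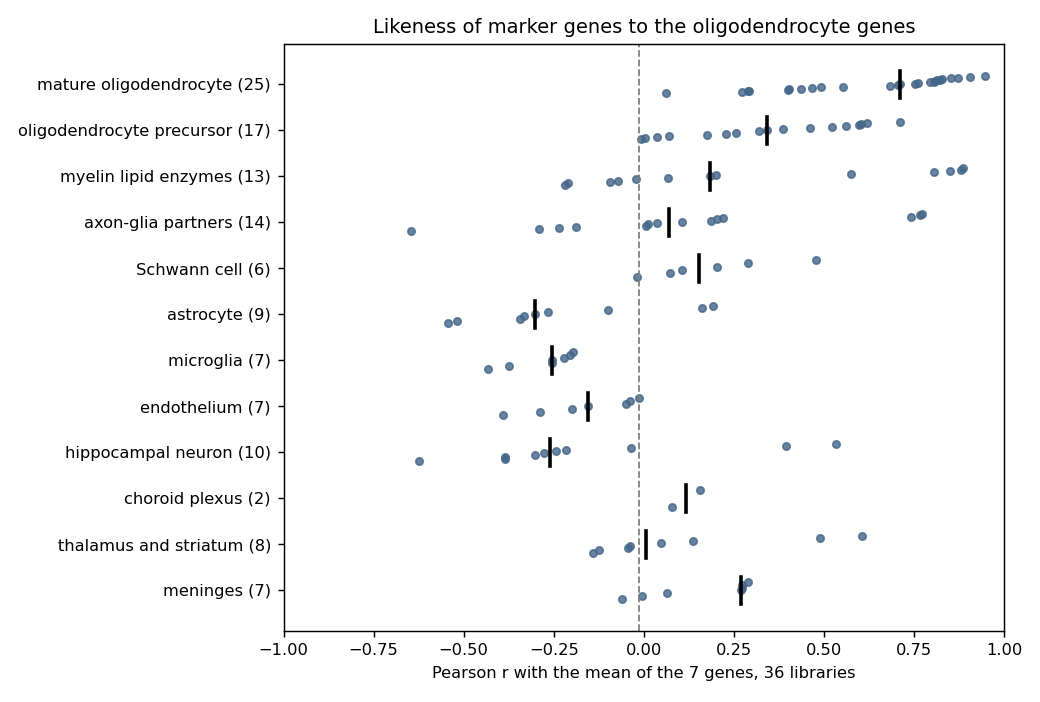
Pearson's r (horizontal axis) over 36 libraries between each marker gene and the mean of the 7 genes, as deviations from group means, with 1 row per marker list and the number of genes measured in brackets. Vertical bars are list medians and the dashed line is the median of all other genes (-0.013). The mature oligodendrocyte list has the highest median, 0.71.

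The other oligodendrocyte genes, the myelin lipid enzymes and the genes of axon and glia contact were then compared between sGC and control animals. In F1, where 2.08% of all genes were called and 19.6% had an unadjusted p below 0.05, 0 of 25 mature oligodendrocyte genes were called in edgeR and 5 had an unadjusted p below 0.05. Of the 25 genes 15 were lower and 10 higher, and their median log2 fold change was -0.06, nearer to 0 than that of the 7 genes. TF, the transferrin gene and the most abundant of the list in F1, was at 0.0059. Of 17 precursor genes 11 were higher and 6 lower with 0 called and 5 at an unadjusted p below 0.05, with a median of 0.08. TNR, the matrix protein tenascin R and the most abundant of these, was at 0.22 with an adjusted p of 0.0747. In 13 lipid enzymes the median was -0.06, with 0 called and 4 at an unadjusted p below 0.05, and in 14 genes of axon and glia contact it was -0.05, with 0 called and 1.

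In F2 0 genes of these 4 lists were called, among 29 mature oligodendrocyte, 17 precursor, 13 lipid and 14 contact genes, and 0, 1, 0 and 5 had an unadjusted p below 0.05, beside 6.64% of all genes. Their medians ran from -0.015 to 0.066 on the log2 scale.

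In F3 the threshold was passed by 0 of 26 mature oligodendrocyte genes, 1 of 17 precursor genes, 1 of 13 lipid enzymes and 1 of 14 contact genes, beside 5.04% of all genes, and nothing is read from these counts about the lists. SOX6, a transcription factor that holds precursor cells back from differentiating, rose from 29.6 ± 1.72 CPM (SD, n = 6) to 36.2 ± 3.07 CPM (SD, n = 7). The log2 fold change was 0.29 with a standard error of 0.0571 and an adjusted p of 0.00902 in edgeR, where 2.17% of all genes were called higher. The lowest sGC animal, at 32.6 CPM, lay above the highest control animal at 30.8 CPM. Of the 17 precursor genes 15 had estimates above 0, with a median of 0.13 and SOX6 as the 1 gene called. BCAS1, a marker of newly formed oligodendrocytes and the most abundant of the list in F3, was at 0.20 with an adjusted p of 0.183.

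RTN4, which encodes the Nogo proteins that oligodendrocytes and neurons carry and that restrain axon growth, fell from 1642 ± 37.2 CPM (SD, n = 6) to 1481 ± 44.2 CPM (SD, n = 7). This was a fall by 0.15 in log2 units with an adjusted p of 0.00902 in edgeR, where 2.87% of all genes were called lower. Its highest sGC animal, at 1514 CPM, was below the lowest control animal at 1598 CPM. Groups that did not overlap, as for SOX6 and RTN4, were found for 2.71% of all genes in F3. The mean of RTN4 was also lower in sGC than in control animals in F1 (1558 and 1623 CPM) and in F2 (1719 and 1800 CPM), without a call. A fall in F3 alone was not shown, since 0 of the 14 contact genes were called for a difference between F3 and F1 or F2. SMPD1, the lysosomal acid sphingomyelinase, fell from 194.4 ± 6.85 to 179.3 ± 6.54 CPM, by 0.12 on the log2 scale, with an adjusted p of 0.0494. The call of SMPD1 was lost without 11 of the 13 libraries in turn and with 5 of the 7 other alternatives, where the adjusted p reached 0.142 without libraries 32 to 36. SOX6 and RTN4 were called in every alternative run. Over the 36 libraries SOX6, RTN4 and SMPD1 had an r of 0.18, 0.012 and -0.21 with the mean of the 7 genes. The median r of the mature oligodendrocyte genes was 0.71, so that these 3 genes did not share the pattern of the 7 closely. The 26 mature oligodendrocyte genes of F3 had 10 estimates above and 16 below 0, a median of -0.026, 0 called and 5 at an unadjusted p below 0.05.

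Markers of other cells were also compared between the F3 groups, where 5.04% of all genes were called and 51.7% were above 0. The summed level of 9 astrocyte markers was 10617 to 11666 CPM in control and 11956 to 13285 CPM in sGC animals. All 9 were above 0, and 3 were called higher, SLC1A2, S100B and GLUL. Of 10 neuron markers 8 were below 0, and 3 were called lower, SNAP25 and the inhibitory neuron genes GAD1 and GAD2. The neuron sum was 12436 to 13232 CPM in control and 10924 to 14661 CPM in sGC animals. Microglial markers were above 0 in 7 of 8 and endothelial markers in 5 of 7, with 0 called in either list. Meningeal markers were above 0 in 7 of 7, with 0 called and 2 at an unadjusted p below 0.05, beside 21.1% of all genes. Their sum was 114.7 to 185.2 CPM in control and 117.5 to 227.3 CPM in sGC animals. The part of these cell types in the values of SOX6, RTN4 and SMPD1 was not tested. An effect on SOX6 in F3 was not shown to differ from that in F1, where SOX6 had a log2 fold change of 0.23 (adjusted p = 0.194 in edgeR), the difference being 0.06 with an adjusted p of 0.853.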

How the data were processed

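Per the study's methods, total RNA of the right hippocampus (RNA integrity number of at least 7) was made into mRNA libraries with a kit that does not mark strand and sequenced as single reads of 51 bases. The submitters' processing notes name TopHat2 and edgeR. The program that counted reads is not given in the sources used here. The count tables, 1 per generation, were deposited by the authors as raw numbers of reads on each gene, with no normalization. The log2 fold changes and average log2 CPM in the deposited tables, the p-values and FDR, and the scores (a likelihood ratio statistic and a dispersion column) are the authors' own comparison of sGC with control and were not used. The deposited methylation tables hold only the authors' comparison and were not used.

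Genes were kept by filterByExpr, scaled by TMM and compared by edgeR's quasi-likelihood test (edgeR 4.0.16, R 4.3.3) within each generation, with Benjamini-Hochberg adjustment over all genes tested and a threshold of 0.05. Differences between generations and between control groups came from 1 fit over all 36 libraries and the genes common to the tables. Intervals (95%) use the t quantile at the fit's degrees of freedom. Alternatives were the likelihood ratio test, DESeq2 1.42.0, RLE scaling, no filter, a replicate block, fits over all generations or controls alone, and leaving out single libraries or those numbered 32 to 36. The summing of OLIG1 and OLIG2 was added after seeing the data. Likeness was computed on log2(CPM + 0.5) with numpy 2.4.6, pandas 2.3.3 and scipy 1.17.1, and figures were drawn with matplotlib 3.10.9. Tested on simulated counts, the fit found 86.9% of genes changed 1.5-fold in F1 (11349 genes), 93.9% in F2 (11377 genes) and 86% in F3 (11337 genes).

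The 9 genes and the companion lists (other mature oligodendrocyte, precursor, myelin lipid and axon and glia contact genes, and markers of other cells) were chosen with earlier results of these data known. All 9 genes were to be named in every comparison, and of each companion list the genes past the threshold, the most abundant gene and the 10 genes most like the 7 measured. Other genes of these lists named as the ends of a range, and PDGFRA and GAD2, were chosen after their values were seen. Results for some genes of these lists are not reported here.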

Additional observations from a re-analysis of the deposited data

Results flagged for a closer look

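The samples of each group were compared for single animals that stood far from the rest, for each of the 7 genes, in 42 groups of 5 to 7 animals, where chance flags about 1 in 20. In 2 of them F1 sGC replicate 1 stood apart. Its CNP level was 693.5 CPM, where the other 4 sGC animals had 493.5 to 535.1 CPM, and the gap to the nearest animal was 0.792 of the group's range, above the critical value of 0.71. Its SOX10 level was 102.8 CPM, where the others had 72.5 to 78.5 CPM, with a gap of 0.805 of the range. The same animal was the highest of its group for 6 of the 7 genes. What set this animal apart was not tested.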

How the results depend on the processing

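The count of the 7 genes called for sGC against control was 0 in each generation under the likelihood ratio test, DESeq2, RLE scaling, no filter, 1 fit over all generations, the libraries without numbers 32 to 36 and the summed OLIG1 and OLIG2. Leaving out each library in turn gave 0 to 1 in F1. Log2 fold changes with a sign that turned lay near 0. Without libraries 32 to 36 MAG was 0.024 in F2 and CNP -0.0058 in F3. Over single libraries left out, the F2 values ran from -0.033 to 0.081 for CNP, -0.086 to 0.036 for MAG, -0.055 to 0.019 for OLIG1 and -0.036 to 0.040 for OLIG2. In F3 they ran from -0.0099 to 0.098 for CNP, -0.073 to 0.071 for SOX10 and -0.12 to 0.081 for UGT8. For UGT8 in controls they were -0.026 to 0.083 for F2 against F1 and -0.11 to 0.072 for F3 against F1. The cause was not tested. Apart from these, the 13 libraries left out in turn moved SMPD1 in F3 between -0.13 and -0.10. Of the values without a library, 637 were classed as the same, 34 as reversed, 12 as weaker, 1 as stronger and 1 as moved. For single genes the same meant that direction and call were kept. Counts and medians of the 7 genes were classed by the size of their move, so that the sign changes of the F2 and F3 medians count as the same.

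Replicate numbers did not pair the animals. The deviations of animals with the same number correlated at -0.067 to 0.31 in F1 (2 of 5 pairs over 0.1), -0.38 to 0.19 in F2 (1 of 6) and -0.30 to 0.027 in F3 (0 of 6), and 1, 1 and 0 animals correlated best with their own number. With a replicate block 0 of the 7 genes were called in each generation and in each difference between generations, SOX10 was 0.034 and UGT8 0.063 in F3, and SMPD1 lost its call (adjusted p = 0.124 in edgeR). The block could not be fitted for control groups of different generations. In F1, with 6 control and 5 sGC animals, the SDs of the 7 genes were 8.9% to 22.2% of the mean. With all F1 libraries kept, the differences of these genes could not be told from 0 after adjustment.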
